A study of Mus musculus with 22 samples.

Results

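The T-cell receptor alpha and delta locus (Tcra/Tcrd) of the mouse was examined at 280 array probes, out of 235390 with a position, chosen only by midpoints inside a window that spans the locus and its flanks (chr14:47343390-49499428 from first to last probe). The assay was array comparative genomic hybridisation, in which the DNA of a mouse competes with reference DNA for each probe, so that the log2 ratio of both dyes reads relative copy number. Thymocyte DNA of 22 Atm-deficient mice, labelled with Cy5, was set against thymocyte DNA of wildtype mice, labelled with Cy3, with 1 array per mouse. Per the labels, 8 of the mice had a T-cell lymphoma, and the other 14 were macroscopically without findings and are called no-lymphoma mice here. All 22 mice were Atm-deficient. Strain, age, sex and the altered part of Atm are not in the labels, and the sources used here name no build for the coordinates.

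Atm is a kinase that responds to broken DNA ends, including those made when receptor genes are assembled. In the mouse the Tcra/Tcrd locus begins with a long array of V segments, followed by the D, J and C segments of the delta chain, then by the many J segments and the C segment of the alpha chain, and ends near Dad1, an oligosaccharyltransferase subunit. Joining a V segment to an alpha J segment cuts out the DNA that lies between them, delta genes included, so thymocytes lose this stretch in the course of normal development. The wildtype DNA of the green channel also came from thymocytes, so a ratio of 0 here means the same share of retained DNA as in wildtype thymocytes and not an intact locus.

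The members were described in 4 stretches, named by the annotation of the array files. The flank before the locus (58 probes, chr14:47343390-47665210) runs from Zfp219, a zinc finger gene, to the zinc finger factor gene Sall2 and just beyond. The V part (86 probes, chr14:47667896-48668519) runs from the first probe annotated to a receptor transcript to the Trav13-5 probe. The D-J-C end (57 probes, chr14:48673555-49087381) runs from there to a probe annotated to a rearranged V-J-C transcript. The flank after the locus (79 probes, chr14:49094139-49499428) starts just before Dad1. V segments are a repeated family with near-identical copies, so the placing of single V probes, and of the border after Trav13-5, is uncertain. No probe is annotated to a single D or J segment, so distances below are given to the first Dad1 probe at chr14:49106107. The name D-J-C end therefore goes by position only. Of its 57 probes, 32 are annotated to the transcript X02929, as are 35 probes of the V part. The stretch may therefore hold V segments as well. Members lay 5504 bp apart in the median. The largest gap, of 118 kb, lay inside the V part, where 2 bins of 100 kb held too few probes to test.

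Probes that carry the main features are shown as the array files print them, with their strand not given there. The first and second flank the border shared by the largest number of lymphoma arrays, the next have the lowest and the highest mean over the lymphoma arrays, and the last pair, chosen after its values were seen, stood apart from its neighbours. Capitals would mark the heptamer CACAGTG of recombination signals on either strand, which none of these probes holds. The heptamer was found in 5 of the 280 members (1.79%) and in 0.898% of all probes with a position. Of these 5 members, 3 lay in the flank after the locus, 1 in the V part and 1 in the D-J-C end.
Left of the shared border, chr14:48623441-48623500: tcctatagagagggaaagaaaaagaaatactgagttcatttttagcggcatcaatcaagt
Right of the shared border, chr14:48632851-48632910: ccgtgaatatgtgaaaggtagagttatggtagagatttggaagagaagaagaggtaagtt
Lowest lymphoma mean, chr14:49034154-49034213: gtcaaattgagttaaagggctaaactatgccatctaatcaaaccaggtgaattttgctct
Highest lymphoma mean, in Zfp219, chr14:47348685-47348737: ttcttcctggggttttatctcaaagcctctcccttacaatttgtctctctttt
First of the pair, chr14:48987841-48987900: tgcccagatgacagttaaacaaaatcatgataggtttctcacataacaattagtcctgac
Second of the pair, chr14:48994013-48994072: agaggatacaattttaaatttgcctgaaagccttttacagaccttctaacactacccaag

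Several arrays stood apart. Noise, the spread of differences between neighbouring probes, ran from 0.152 to 0.372 in the lymphoma arrays and from 0.134 to 0.546 in the others. An Atm probe on chromosome 9 was chosen among 12 Atm probes for the highest mean over the lymphoma arrays. It checks nothing if it lies outside the altered part. The probe read 0.954 to 1.32 in the lymphoma arrays and -1.08 to 1.69 in the others. Below 0.5 were 5 no-lymphoma arrays (mice 1, 3, 4, 5 and 6). That no lymphoma array was low follows in part from the way this probe was chosen. Arrays were scanned in 6 batches, and 2 of these held no lymphoma array (batch 2 with no-lymphoma mice 1, 3 and 4, batch 4 with mice 8, 9, 10 and 12). Over all autosomal probes 8 of 231 pairs of arrays correlated under -0.3, each of them with no-lymphoma mouse 3, 4 or 9, as in lymphoma mouse 3 with no-lymphoma mouse 4 (r = -0.48). The dyes are stated in the labels, so the labelled direction was kept and the sign was also turned for these arrays. The array of no-lymphoma mouse 11 had a profile at this locus like that of the lymphoma arrays, and results are also given without it.

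**Figure D1:**
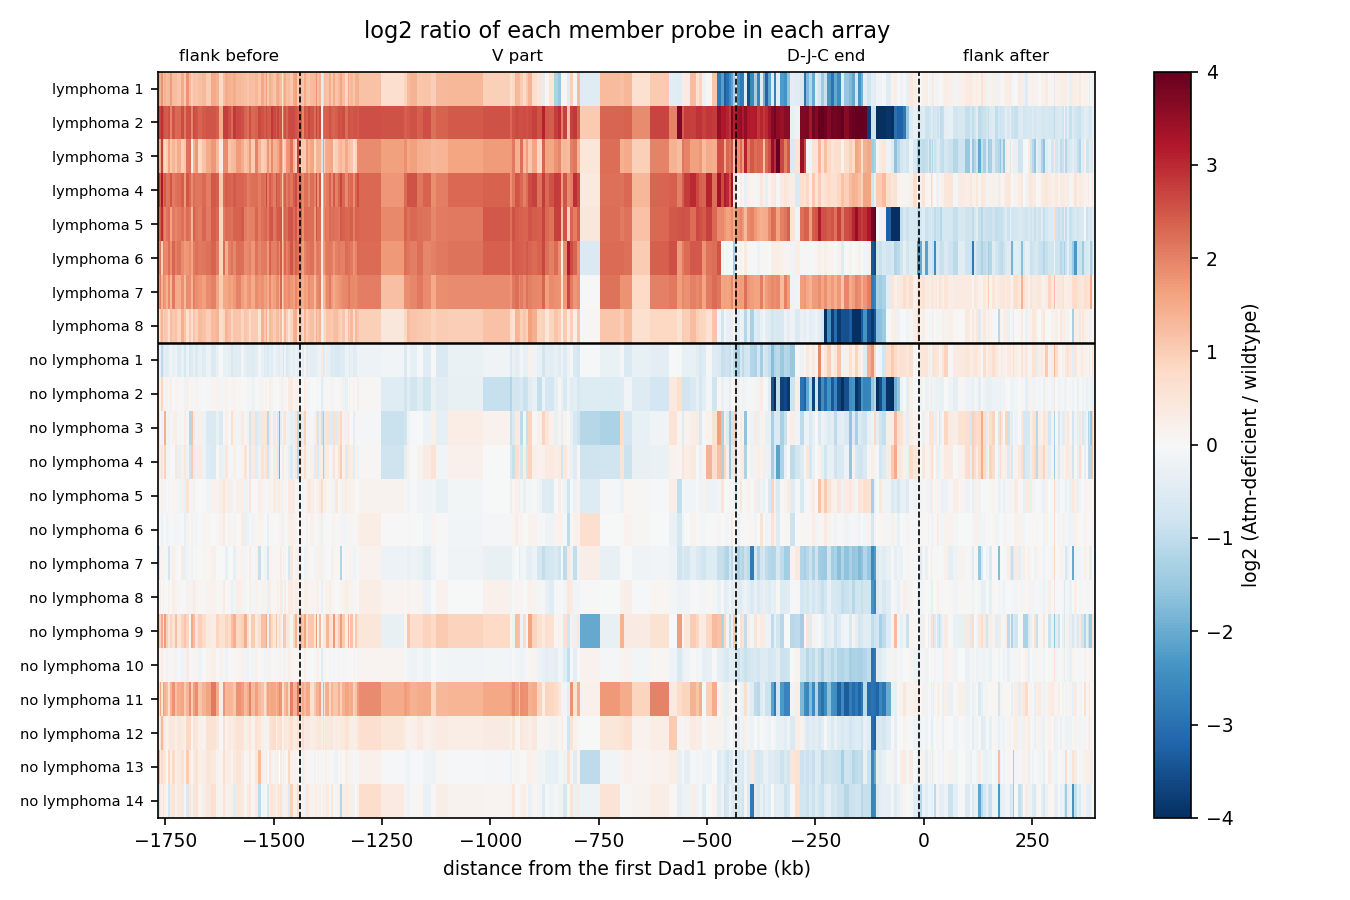
Log2 ratio (Atm-deficient over wildtype, colour, cut at 4 in both directions) of the 280 member probes in each of the 22 arrays, by distance from the first Dad1 probe in kb. Lymphoma arrays are above the black line, and dashed lines part the flank before, the V part, the D-J-C end and the flank after. All 8 lymphoma arrays are red through the flank before, and their switch to white or blue lies at different places.

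Copy number before the locus and over most of the V part was higher in the lymphoma arrays. The flank before stood at 1.2997, 2.46, 1.44, 2.25, 2.18, 2.003, 1.70 and 1.04 in lymphoma mice 1 to 8, against a lowest value of -0.40, a median of 0.09 and a highest of 1.39 in the no-lymphoma arrays. Every lymphoma array lay above at least 13 of the 14 no-lymphoma arrays, and the exception was no-lymphoma mouse 11 at 1.39. The mean was 1.79 ± 0.51 in lymphoma (SD, n = 8) and 0.21 ± 0.43 in no lymphoma (n = 14), or 0.11 ± 0.28 without mouse 11 (n = 13).

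Of the probes of this flank, 58 of 58 were higher in lymphoma at an adjusted p under 0.05 (limma over all autosomal probes, Benjamini-Hochberg), where 2.32% of all autosomal probes were called higher and 0.818% lower. The genes here include Hnrnpc, which encodes an RNA-binding protein of pre-mRNA particles, Supt16, a subunit of the FACT histone chaperone, Mettl3, the catalytic subunit of the RNA m6A methyltransferase, Rpgrip1, a ciliary protein of photoreceptors, and Rab2b, a small GTPase of membrane traffic. Supt16 averaged 1.87 ± 0.53 in lymphoma and 0.23 ± 0.46 in no lymphoma, a difference of 1.64 with a standard error of 0.20 (limma adjusted p = 3.73e-05). In a fit of all genes with at least 1 probe, 17 of the 17 genes and transcripts here were called higher (differences of 1.40 to 1.92), against 5.08% of all genes called higher and 1.18% called lower.

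The V part was also higher in the lymphoma arrays. It stood at 0.58, 2.52, 1.49, 2.26, 2.16, 1.91, 1.78 and 0.87 in lymphoma mice 1 to 8, against a lowest value of -0.38, a median of -0.0015 and a highest of 1.10 in the no-lymphoma arrays. In lymphoma mouse 1 the level dropped inside the V part, with a segment of 1.25 up to 48207470 followed by one of -0.15 from 48222064 to 48302197, one of 0.90 to 48505985 and one of 0.35 to 48623500. No-lymphoma mouse 11 showed a similar dip, with 0.36 from 48230852 to 48287337 between segments of 1.39 and 1.10. The group means were 1.70 ± 0.68 in lymphoma and 0.06 ± 0.39 in no lymphoma (-0.02 ± 0.25 without mouse 11), and 77 of 86 probes were called higher.

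Of the 9 genes and transcripts whose first probe lies in the V part, 8 were called higher. The transcript X02929 among them has 35 probes in the V part and 32 in the D-J-C end, so its value covers both. Trav3-3, an alpha V segment named at a single probe (chr14:48177769-48177828), averaged 1.99 ± 0.64 in lymphoma and -0.03 ± 0.67 in no lymphoma (limma adjusted p = 6.19e-05). The odorant receptor genes Olfr1511, Olfr1509 and Olfr1508, which lie within the V array, averaged 1.56, 1.87 and 1.83 in lymphoma and 0.02, 0.27 and 0.15 in no lymphoma, and all 3 were called higher. Trav13-5, the last V segment with a name here (chr14:48668460-48668519), read -1.40, 3.12, 1.19, 0.54, 1.53, -1.31, 1.37 and 0.16 in lymphoma mice 1 to 8, against a range of -0.95 to 1.02 in the no-lymphoma arrays. Here the groups overlapped and the difference of 0.71 with a standard error of 0.42 missed the threshold (limma adjusted p = 0.332).

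**Figure D2:**
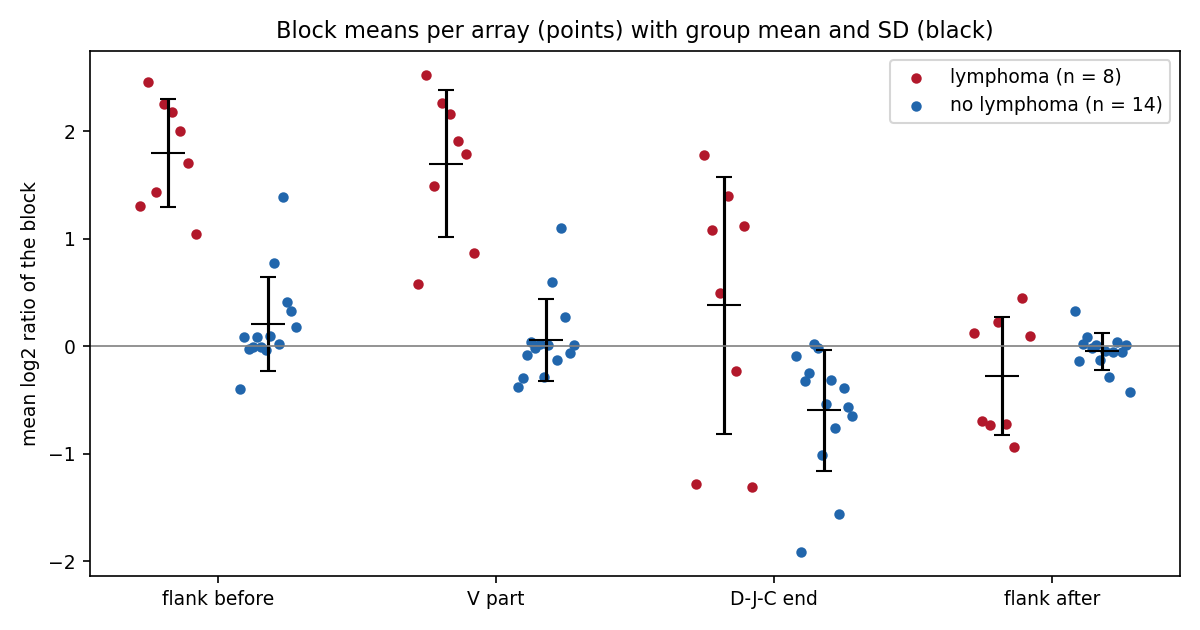
Mean log2 ratio of each stretch in each array (points), with group mean and SD (black), lymphoma (n = 8, red) left of no lymphoma (n = 14, blue). The lymphoma arrays lie between 1.04 and 2.46 in the flank before and spread from -1.31 to 1.78 in the D-J-C end.

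A break was then placed in each array, as the border between segments with the largest drop from left to right. A drop was found in 8 of 8 lymphoma arrays and in 12 of 14 no-lymphoma arrays, and no-lymphoma mice 3 and 6 had no border in the window. The drop had a median of 2.87 in lymphoma (1.68 to 6.83) and of 0.58 in no lymphoma (0.49 to 3.08). The segment left of it was a gain, at 0.25 or more, in 7 of 8 lymphoma arrays and 2 of 12 others. At the largest drop, a direct step from gain to loss, at -0.25 or less on the right, was found in 5 lymphoma arrays (mice 1, 2, 3, 5 and 7). It was also found in 1 no-lymphoma array (mouse 9). The segments of no-lymphoma mouse 9 ran from 40983990 to 48632910 and from 48643290 to 119210680, so neither was confined to the locus. Lymphoma mouse 8 also stepped directly from gain to loss, from 1.03 to -0.44, but at a smaller drop in the V part. These counts are descriptions and were not tested. With normexp the largest drop moved by more than the spread within its group in 4 of 8 lymphoma arrays (mice 1, 3, 5 and 8) and in 10 of 11 no-lymphoma arrays, so most no-lymphoma positions depend on the background correction.

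Break positions in lymphoma fell into the last V stretch and into the D-J-C end. In lymphoma mice 1, 6 and 4 the drop lay in the V part, 473, 463 and 438 kb before Dad1. The step in mouse 1 was from 0.35 to -2.33 between the probes ending at 48623500 and starting at 48632851, that in mouse 6 from 2.12 to 0.03 between 48632910 and 48643290, and that in mouse 4 from 2.80 to 0.14 between 48664865 and 48668460. In mice 6 and 4 the level right of the break was near 0, and in mouse 6 a loss of -0.85 followed from 48987841 on. The distance between the flanking probes sets the resolution, which was 3595 to 12920 bp in the lymphoma arrays.

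In the other 5 lymphoma arrays the largest drop lay in the D-J-C end, a stretch named by position only. Lymphoma mouse 8 stepped from -0.44 to -3.50 at 228 kb before Dad1, after an earlier step from 1.03 to -0.44 at the shared border. Lymphoma mouse 2 stepped from 3.90, a ratio of 14.9, to -2.93 at 126 kb before Dad1, the largest drop of any array. Lymphoma mice 3 and 7 stepped at the same pair of probes, 118 kb before Dad1, from 0.93 to -0.76 in mouse 3 and from 1.63 to -1.89 in mouse 7. Lymphoma mouse 5 stepped from 1.70 to -3.74 at 79.6 kb before Dad1, between the probes ending at 49013629 and starting at 49026549. Within its segment of 1.70, the 2 probes on the left read 3.82 and 4.70 and the last 3 read close to 0, so the gain ended in more than 1 step.

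**Figure D3:**
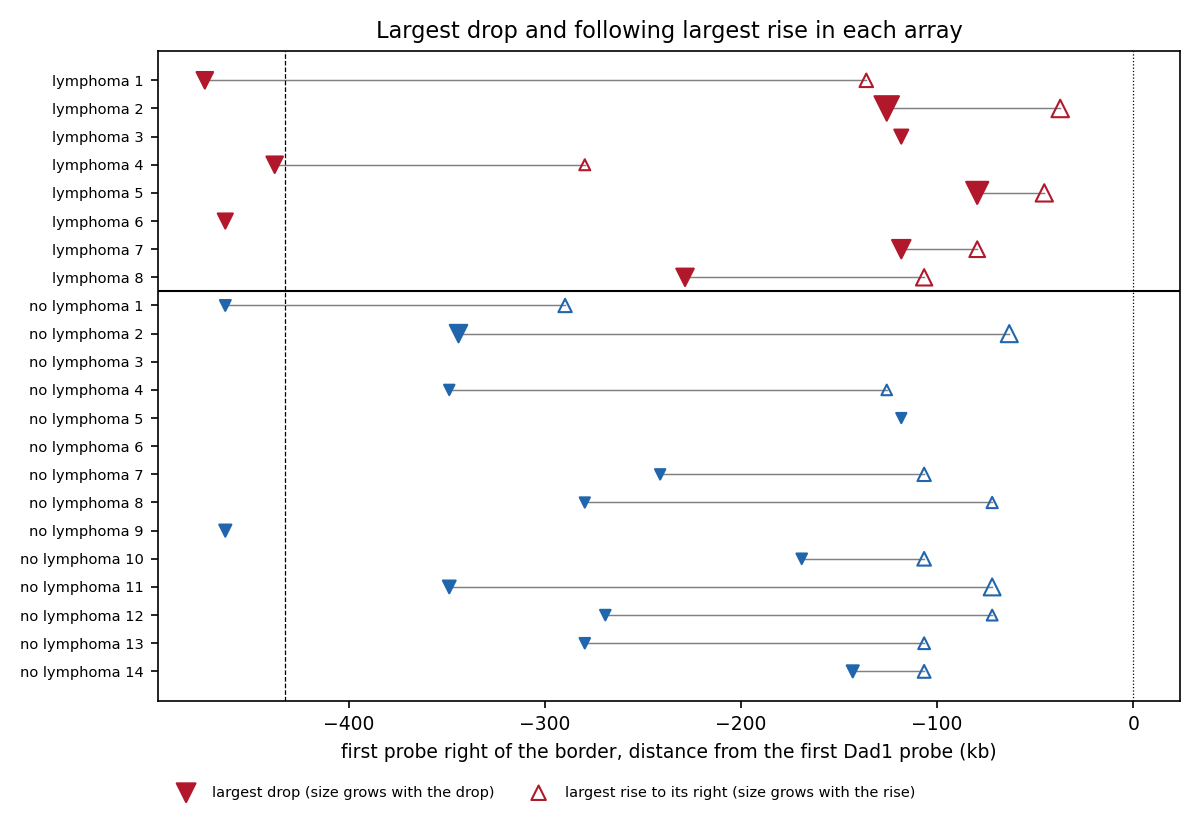
Largest drop (filled, pointing down) and the largest rise to its right (open, pointing up) in each array, by distance of the first probe right of the border from the first Dad1 probe in kb. Lymphoma arrays are above the line, the dashed line marks the start of the D-J-C end, the dotted line the first Dad1 probe, and marker size grows with the step. Drops of the lymphoma arrays lie 79.6 to 473 kb before Dad1 and those of the no-lymphoma arrays 118 to 463 kb.

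Borders recurred at the same probes in both groups. Of 48 distinct borders in the window, the one between 48623500 and 48632851 was found in 10 arrays, 5 of each group, and the next one, between 48632910 and 48643290, in 5 further arrays. At these neighbouring borders 12 of the 15 steps went down. The level instead went up there in 3 arrays, lymphoma mouse 2, lymphoma mouse 3 and no-lymphoma mouse 2, to 3.05 from 2.87, to 2.40 from 1.34 and to -0.22 from -0.52. The probe left of the border averaged 1.93 ± 0.62 in lymphoma and 0.15 ± 0.66 in no lymphoma, and the probe right of it averaged 1.63 ± 2.13 in lymphoma and 0.09 ± 0.75 in no lymphoma. By segment means, the border between 48980478 and 48987841 was a step down in lymphoma mice 3 and 5 to 7, and in no-lymphoma mouse 5. In lymphoma mouse 5, however, the first 2 probes right of this border read 3.82 and 4.70. These lie above the segment of 3.07 on its left, so the level of lymphoma mouse 5 did not fall at this border.

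Deletion depth, the lowest segment mean in the window, differed widely among the lymphoma arrays. It was -2.33, -3.78, -0.76, 0.14, -3.74, -0.85, -1.89 and -3.50 in lymphoma mice 1 to 8, so that 7 of 8 had a loss and mouse 4 had none. With normexp background correction the lowest segments of mice 2, 5, 7 and 8 were -1.27, -0.28, -0.05 and -0.24, and 5 of 8 arrays had a loss, so the depth depends on the background correction. The deepest segments correspond to ratios of 0.0728 in mouse 2, 0.0751 in mouse 5 and 0.0882 in mouse 8. In mice 3 and 6 the lowest segment was not confined to the locus, since it ran from 48987841 to 56557704 in mouse 3 and to 75040570 in mouse 6. The narrow deep segments covered 49013570 to 49060782 in mouse 2 (7 probes), 49026549 to 49055862 in mouse 5 (5 probes), 48987841 to 49013629 in mouse 7 (5 probes) and 48877622 to 48994072 in mouse 8 (16 probes). The segments of mice 7 and 8 hold the probe pair shown above, whose level moved with the scan batch.

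The low stretch was counted from the largest drop to the largest rise after it, and ended inside the window in 6 lymphoma arrays. So counted, mouse 1 had the longest of these, of 330 kb, at -2.33, -1.82, -1.21 and -1.88 in successive segments. This count left out the loss of -0.44 in mouse 8, from 48632851 to 48872734. In mouse 4 the stretch stood at 0.14 and was no loss. Of the 59 spots of mouse 1 in the D-J-C end, 40 were not well above background in the red channel, so the depth there is limited by background. In the other 7 lymphoma arrays at most 3 spots of this stretch were in that state, 3 in mouse 2 and 1 in mouse 5. No member spot was saturated in any array. The deepest single probe, at chr14:49034154-49034213, read 0.18, -6.07, -0.53, 0.51, -5.41, -0.71, 0.52 and 0.22 in lymphoma mice 1 to 8, against a lowest value of -4.45 in no-lymphoma mouse 2 and a highest of 1.06 among the no-lymphoma arrays. Only these 3 arrays were below -1 at this probe, and the difference of -1.24 with a standard error of 0.79 missed the threshold (limma adjusted p = 0.443). It turned to 0.20 where probes not well above background were left out. This filter took out the readings of lymphoma mice 2 and 5 and kept that of no-lymphoma mouse 2. The readings of lymphoma mice 2 and 5 are thus limited by background, and the turn does not test the loss.

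**Figure D4:**
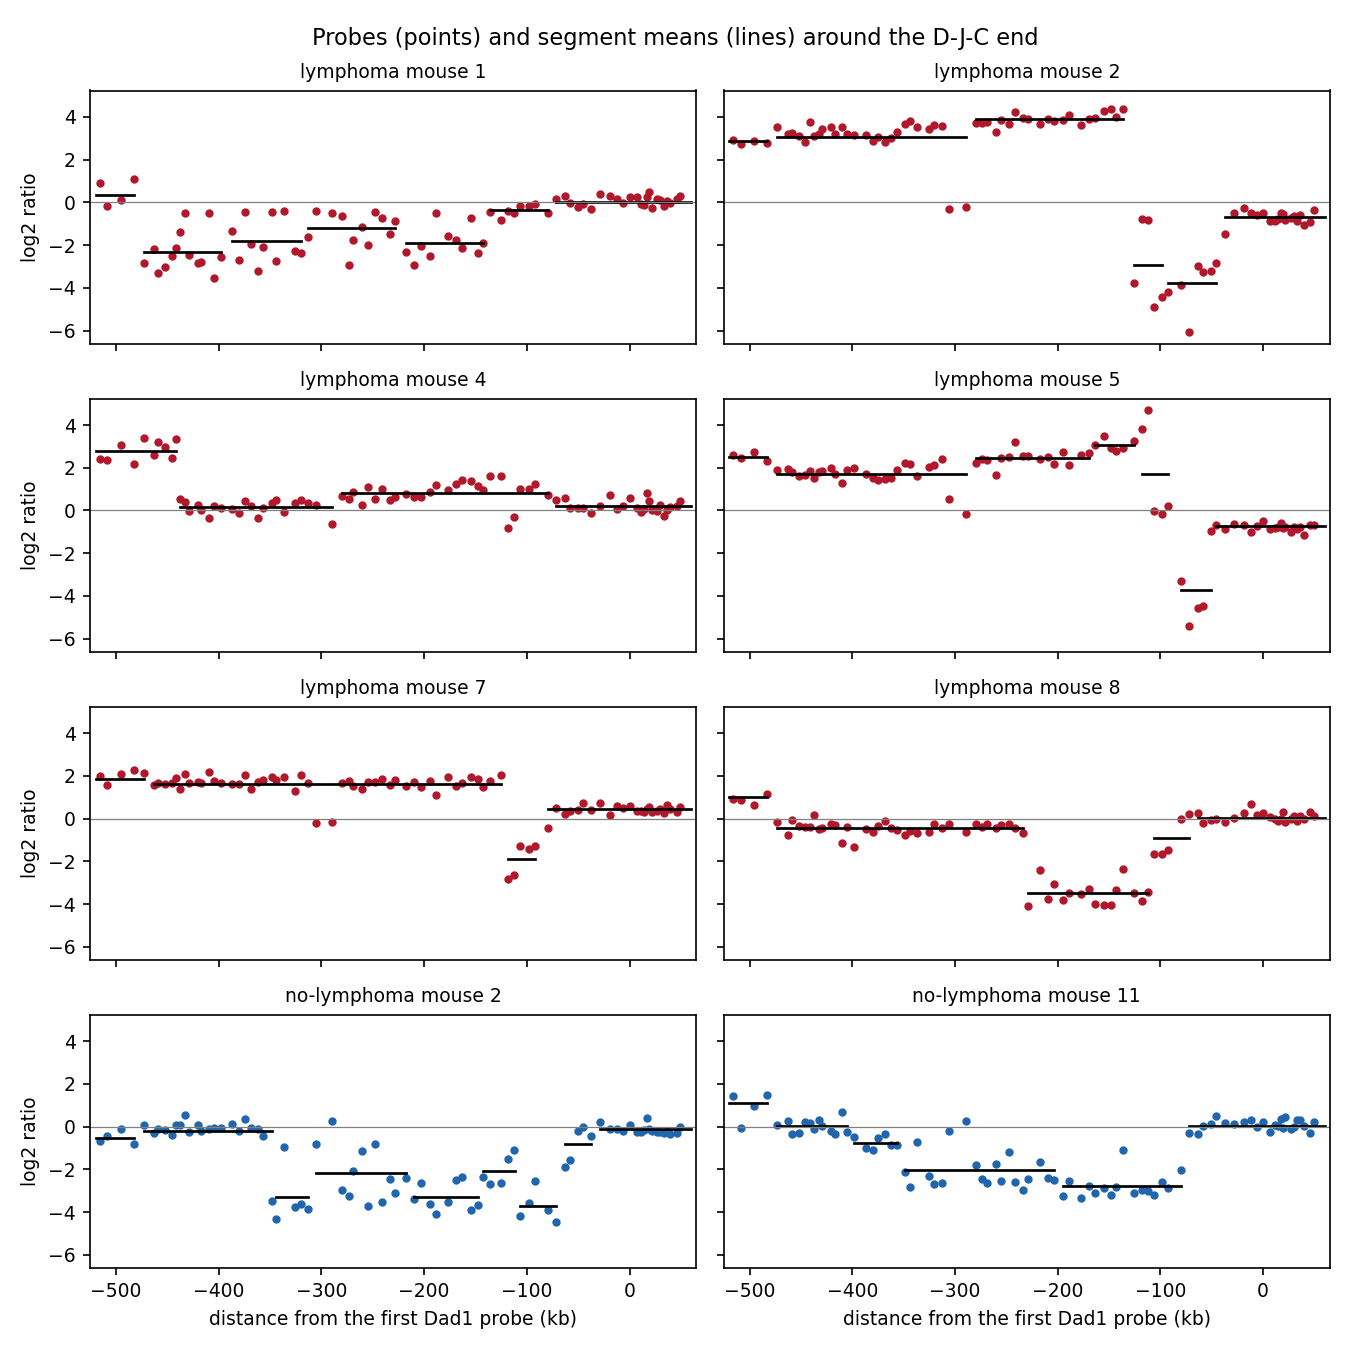
Log2 ratio of the probes (points) and segment means (lines) by distance from the first Dad1 probe in kb, for 6 lymphoma arrays (red) and 2 no-lymphoma arrays (blue) with a border of a large step. The drop lies 473 kb before Dad1 in lymphoma mouse 1 and 79.6 kb before it in lymphoma mouse 5, and levels return towards 0 before Dad1 in no-lymphoma mice 2 and 11.

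In the no-lymphoma arrays the D-J-C end was low without a gain before it in most cases. It averaged -0.60 ± 0.57 (n = 14), or -0.52 ± 0.51 without mouse 11, against 0.38 ± 1.19 in lymphoma (n = 8). By array it was -0.09, -1.91, -0.32, -0.25, 0.02, -0.02, -1.02, -0.54, -0.32, -0.77, -1.57, -0.39, -0.57 and -0.65 in no-lymphoma mice 1 to 14. It lay at -0.25 or below in 10 of 14 no-lymphoma arrays and in 2 of 8 lymphoma arrays, and at 0.25 or above in 0 of 14 no-lymphoma arrays and in 5 of 8 lymphoma arrays.

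The low level came in steps towards Dad1 in several of these mice. No-lymphoma mouse 7 stood at -0.62 from 48543789, close to -1 from 48632851 and at -1.53 from 48864938 to 48994072. No-lymphoma mouse 10 stood at -0.17, -0.60, -1.01 and -1.60 in successive segments up to 48994072, and no-lymphoma mouse 13 at -0.41 and -0.98 from 48632851 to 48994072. The lowest segments of the no-lymphoma arrays had a median of -0.91 and ran down to -3.74 in mouse 2 and -2.80 in mouse 11, which with normexp were -1.06 and -0.48. In mouse 2 losses between -2.06 and -3.74 filled the stretch from 48762152 to 49034213, with levels of 0.02, -0.52 and -0.22 before it and so no gain. In mouse 11 the segments from 47369165 on ran 1.39, 0.36, 1.10, 0.02, -0.74, -2.005 and -2.80 from left to right, a gain and a deep loss in one array.

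The low level of the no-lymphoma arrays moved with the scan batch. The D-J-C end averaged -1.91 in batch 1 (n = 1), -0.22 in batch 2 (n = 3), 0.0022 in batch 3 (n = 2), -0.50 in batch 4 (n = 4), -1.08 in batch 5 (n = 3) and -0.57 in batch 6 (n = 1). Batches 2 and 3 held all 5 no-lymphoma arrays with a low Atm probe, and without them the mean was -0.86 ± 0.55 (n = 9), with a range of -1.91 to -0.32. The part of the batch, and of the arrays with a low Atm probe, in this result was not tested. The array of no-lymphoma mouse 1, from batch 2, differed in shape, with -0.37 before the locus, -1.03 from 48643290 to 48800715 and 0.40 beyond.

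A pair of neighbouring probes, chosen after their values were seen, stood far from the probes around them. They lie 118 and 112 kb before Dad1, are annotated to the transcript A630098A13Rik, and differed from the median of the 7 probes centred on each by 1.17 and 1.27 on average over the arrays, against a median of 0.194 for all members. The first read -0.39, -0.79, -1.46, -0.81, 3.82, -3.43, -2.83 and -3.86 in lymphoma mice 1 to 8. In the no-lymphoma arrays it ran from -3.07 to 1.81, with 7 arrays (mice 7, 8 and 10 to 14) between -3.07 and -2.38. Both probes were at -2 or below in 10 of the 11 arrays of scan batches 4 to 6, of both groups, and in 0 of the 11 arrays of batches 1 to 3, so their level moved with the scan batch and its part was not tested. The difference between lymphoma and no lymphoma at the first probe was 0.35 with a standard error of 0.76 (limma adjusted p = 0.858). They adjoin the borders that end at 48980478 and 48994072. Steps at these borders, and the levels of segments that hold the pair, therefore rest in part on these probes.

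A further 4 probes, also chosen after their values were seen, lay near 0 in most lymphoma arrays while their neighbours did not. At chr14:48816477-48816536 the values lay between -0.62 and 0.53 in the lymphoma arrays and between -1.04 and 0.71 in the others, while the probes around it averaged 1.03 in lymphoma and -0.75 in no lymphoma. The probe at chr14:48800656-48800715 read -0.60 to 0.56 in lymphoma, and those in the V part at chr14:47717207-47717264 and chr14:48317870-48317929 read -0.77 to 0.31 and -0.56 to 1.05 there, beside neighbours that averaged 1.78 and 1.81.

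Right of the break the level stepped up again before Dad1 in 6 of 8 lymphoma arrays and in 10 of the 12 no-lymphoma arrays with a drop. The largest such rise lay 37.3, 45.4, 79.6, 107, 136 and 280 kb before Dad1 in lymphoma mice 2, 5, 7, 8, 1 and 4. In the no-lymphoma arrays it lay at the border between 48994072 and 48999485, 107 kb before Dad1, in mice 7, 10, 13 and 14 and between 49026608 and 49034154, 72.0 kb before Dad1, in mice 8, 11 and 12. The last members of the locus were back near the level of the flank, with the V-J-C transcript probe (chr14:49087322-49087381) at -0.09 ± 0.52 in lymphoma and -0.04 ± 0.22 in no lymphoma.

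The flank after the locus was split within the lymphoma group. It stood at 0.12, -0.69, -0.74, 0.22, -0.73, -0.94, 0.45 and 0.10 in lymphoma mice 1 to 8, so that mice 2, 3, 5 and 6 were at -0.69 or lower and the other 4 at 0.10 or higher. The no-lymphoma arrays ran from -0.43 to 0.32 with a median of -0.03. Group means were -0.28 ± 0.55 in lymphoma and -0.05 ± 0.17 in no lymphoma, and limma called 0 of 79 probes in either direction. Dad1 itself averaged -0.26 ± 0.53 in lymphoma and 0.02 ± 0.11 in no lymphoma (limma adjusted p = 0.241). Of the 19 genes and transcripts here, among them Slc7a7, a subunit of an amino acid transporter, Mmp14, a membrane-bound metalloprotease, Prmt5, an arginine methyltransferase, and Psmb11, the thymus-specific proteasome subunit, limma called 0 in either direction, with differences of -0.36 to 0.04.

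**Figure D5:**
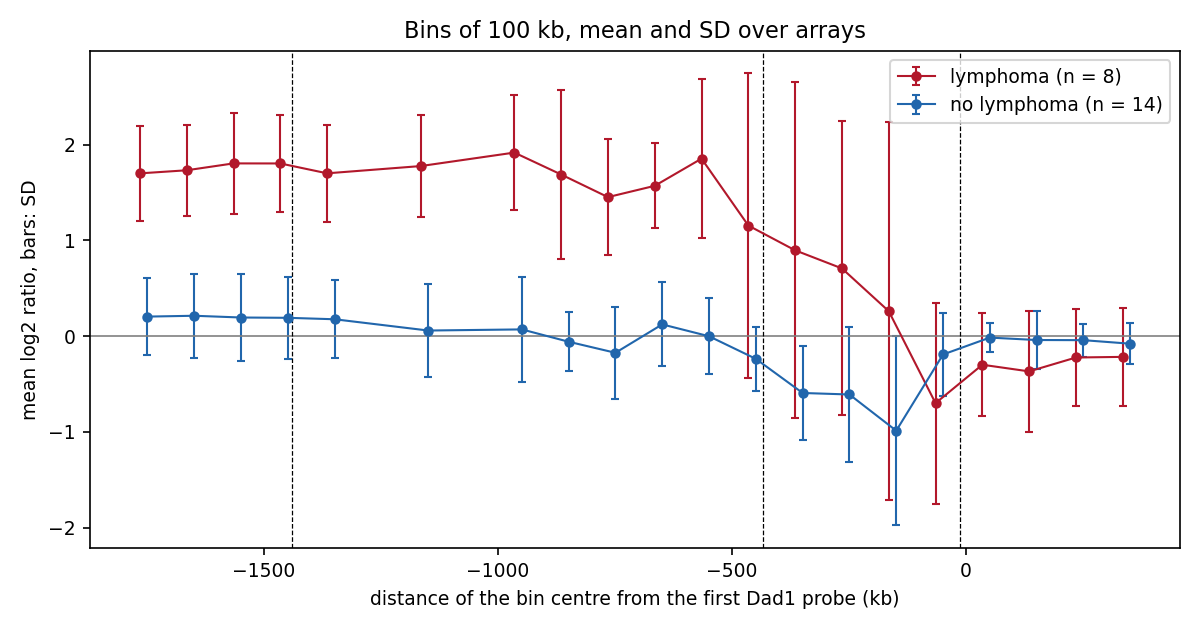
Mean log2 ratio with SD over arrays in bins of 100 kb, by distance of the bin centre from the first Dad1 probe in kb, for lymphoma (n = 8, red) and no lymphoma (n = 14, blue). Dashed lines part the 4 stretches. The lymphoma mean is 1.45 to 1.92 in the first 11 bins and -0.70, with an SD of 1.05, in the last bin before Dad1.

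Tested in bins of 100 kb, the window held 20 bins, the first of which begins just before the first member. In 14 of 20 the lymphoma mean was higher and in 0 it was lower (limma, adjusted p under 0.05 over all autosomal bins), where 6.68% of all bins were called higher and 9.02% lower. Without no-lymphoma mouse 11 the number was also 14, and it was 11 when the 5 low-Atm arrays were left out. At an unadjusted p under 0.05 there were 15 higher bins, against 14% of all bins, and 0 lower ones, and the exact permutation test over all 319770 splits gave no lower bin either. In the 11 bins from 47300001 to 48600000 the difference was 1.45 to 1.85 (adjusted p of at most 3.91e-05). It was 1.39 with a standard error of 0.41 in the bin from 48600001 (adjusted p = 0.0249), 1.49 with a standard error of 0.46 from 48700001 (adjusted p = 0.0331) and 1.32 with one of 0.44 from 48800001 (adjusted p = 0.0472).

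These last 3 bins hold 4 of the 8 lymphoma breaks, and their calls did not hold in every setting. With the scan batch as a block the adjusted p was 0.174, 0.0995 and 0.03, and with the 5 low-Atm arrays left out it was 0.129, 0.121 and 0.094. With normexp the bins from 48700001 and 48800001 fell short too (adjusted p = 0.0964 and 0.0873). In the bin from 48900001 the means were 0.26 ± 1.97 in lymphoma and -0.99 ± 0.99 in no lymphoma (adjusted p = 0.134). In the bin from 49000001 they were -0.70 ± 1.05 in lymphoma and -0.19 ± 0.43 in no lymphoma (adjusted p = 0.225). Within the 4 batches that held both groups the difference for the V part was 1.74, 2.34, 0.59 and 1.91 in batches 1, 3, 5 and 6, and that for the D-J-C end was 2.01, 1.58, -0.23 and 1.01. Lymphoma and no-lymphoma arrays numbered 3 and 1 in batch 1, and 2 and 2 in batch 3. They numbered 1 and 3 in batch 5, and 2 and 1 in batch 6, so most of these differences rest on a single array in 1 group. Batch 5 held no-lymphoma mouse 11, and the no-lymphoma arrays of batch 3 had a low Atm probe. In 0 of 20 bins did every lymphoma array lie above every no-lymphoma array, where 0.0525% of all bins were so.

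Against the wildtype DNA, the lymphoma mean was above 0 in 13 of 20 bins and below 0 in 3, from 49000001 to 49300000 (limma adjusted p under 0.05 and a mean beyond 0.25), where 6.5% of all bins were above and 4.46% below. The 3 lower bins stood at -0.70, -0.30 and -0.37 (adjusted p = 0.0179, 0.0335 and 0.0421). Of these calls 1 was left with mode centring and 0 with normexp. The no-lymphoma mean was above or below in 0 bins (limma), where 0.00437% of all bins were above and 0.0394% below. At an unadjusted p under 0.05 it was below in 3 bins, against 0.0918% of all bins, and the lowest of these, from 48900001, had an adjusted p of 0.0918. Such a test leaves out the spread of the wildtype DNA.

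Counted per mouse, a gain was called in 8 of 8 lymphoma arrays and in 2 of 14 no-lymphoma arrays (mice 9 and 11) in the bins from 47900001, 48100001, 48300001, 48400001 and 48500001 (two-sided Fisher exact p = 0.000141, adjusted p = 0.0273). These were the 5 bins gained more often in lymphoma, against 2.34% of all bins. The number was 0 with a segmentation penalty of 5, with mode centring, with calls at 0.15 and without scan batch 2, and it was 8 without mouse 11. In the bin from 48200001, where lymphoma mouse 1 dips, it was 7 of 8 against 2 of 14 (Fisher exact adjusted p = 0.0892). Losses were called in 2 of 8 lymphoma and 10 of 14 no-lymphoma arrays in the bins from 48800001 and 48900001 (Fisher exact p = 0.0743 in each). In the bins from 49000001 on they were called in 4 of 8 lymphoma arrays and in 2 or 3 of 14 no-lymphoma arrays. No bin was lost more often in lymphoma (Fisher exact test, 0 of 20 also at an unadjusted p under 0.05), against 0.306% of all bins.

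At the level of probes, 140 of 280 members were higher in lymphoma and 0 lower, and 18 were lower at an unadjusted p under 0.05, where 8.02% of all autosomal probes were. Besides 58 in the flank before and 77 in the V part, these were 5 of 57 probes in the D-J-C end. The 5 largest differences were 2.06 to 2.24, and 2 of them lay in the D-J-C end. The other D-J-C probe, at chr14:48757444-48757503, had a difference of 2.21 (limma adjusted p = 0.0291) and lost its call in 7 of 10 alternatives, among them normexp (0.76, limma adjusted p = 0.308) and the batch block (limma adjusted p = 0.108). The V part probe at chr14:48230852-48230911 (difference 2.17) was at 0.86 with normexp (limma adjusted p = 0.065). At chr14:48826522-48826581 the values were -0.65, 3.73, 3.46, 0.67, 2.20, -0.08, 1.67 and -0.27 in lymphoma mice 1 to 8, against -2.95 to 0.15 in the no-lymphoma arrays (difference 2.24, standard error 0.49, limma adjusted p = 0.00781). With normexp this difference was 0.61 and not called (limma adjusted p = 0.483). The lymphoma arrays were spread on both sides of 0 there, whereas at chr14:48398828-48398887 in the V part they read 1.11 to 2.34 (difference 2.06, standard error 0.26, limma adjusted p = 8.11e-05). The 4 lowest differences, -0.73 to -1.24, lay between 49034154 and 49055862, and lymphoma mice 2 and 5 were the lowest lymphoma arrays at each of them.

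Genes of the pathway elsewhere in the genome were tested where they had at least 3 probes, and 2 were called higher and 2 lower, where 6.67% of all genes were higher and 2.51% lower. The counts were not tested against these shares. Of the V(D)J recombination list, 7 of 14 were tested, with a median difference of 0.03 against 0.05 for all genes. Xrcc6, the Ku70 subunit that binds DNA ends, was higher (0.64 ± 0.21 in lymphoma and 0.18 ± 0.20 in no lymphoma, limma adjusted p = 0.0008), and Xrcc4, a partner of DNA ligase IV, was lower (-0.14 ± 0.08 in lymphoma and -0.03 ± 0.05 in no lymphoma, limma adjusted p = 0.0262). Of the genes that control Tcra recombination, 9 of 10 were tested with a median of 0.17. Rad21, a cohesin subunit, was higher (0.46 ± 0.19 in lymphoma and 0.02 ± 0.21 in no lymphoma, limma adjusted p = 0.00113), and Bcl11b, a T-lineage transcription factor, was lower (-0.61 ± 0.20 in lymphoma and -0.08 ± 0.26 in no lymphoma, limma adjusted p = 0.00113). The higher genes, Xrcc6 and Rad21, lie on the same chromosome, 15, with differences of 0.459 and 0.444. Of 9 tested genes of the break response, such as Trp53, Nbn and Chek2, and of 7 tested receptor partners, such as Cd3e, Zap70 and Lck, limma called 0 in either direction, with medians of 0.06 and 0.15. At an unadjusted p under 0.05 these were 0 genes of the break response and 4 receptor partners, all higher in lymphoma (Cd247, Lck, Cd4 and Lcp2), where 18.4% of all genes were higher at that threshold. With the scan batch as a block, 3 of the 4 calls were lost, with limma adjusted p = 0.0719 for Xrcc6, 0.241 for Xrcc4 and 0.0901 for Rad21, and Bcl11b was still called (0.0164). Xrcc4 was not called with mode centring (limma adjusted p = 0.126) or without scan batch 2 (0.083) either.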

How the data were processed

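Thymocyte DNA of 22 mice was hybridised to 1 array each. Per the file headers, the deposited spot intensity is background-subtracted and dye-normalised by Feature Extraction 9.1.3.1, and the submitters' processing notes name version 9.1. The deposited log10 ratio is red over green per the file headers, and the authors' value table held the same log10 ratios, with a largest difference of 0. From the processed intensity, log2 ratios were computed without outlier-flagged spots (3 to 111 per array), averaged over spots of a probe and centred on the median of the autosomal probes, with no loess. Spots not well above background made up 0.089% to 1.54% of an array. Median red signals were 146 to 397 and local red backgrounds 50.0 to 82.0. Precision is limited by how many arrays each group has.

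Arrays were segmented by least squares (each further segment costs 3 noise variances times log n for n probes, at least 5 probes, values cut at 4 noise SD from a 7-probe running median), and calls were made at 0.25. Bins of 100 kb with at least 3 probes, probes and genes were fitted by limma 3.58.1 (R 4.3.3) over all 22868 autosomal bins, 220065 probes or 12991 genes, with Benjamini-Hochberg adjustment. Calls per bin were tested with Fisher's exact test (scipy 1.17.1), with gains and losses adjusted together. Scripts were tested on simulated data. Gene symbols were updated through RefSeq (GRCm38.p6), used for names and gene order only. The rule named all genes of the window, the 5 lowest and 5 highest probes by difference, the 5 lowest by lymphoma mean, the probes around breaks and list genes that passed. Members and lists were chosen with earlier results of these data known. Each array is labelled as a separate mouse, and no fit imputed or dropped a sample except where stated.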

Additional observations from a re-analysis of the deposited data

Results flagged for a closer look

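In 40 values examined over the 8 lymphoma arrays (stretches, bins, probes named by the rule, break and depth), 2 had 1 array far from the others, and chance flags about 1 in 20. At the probe chr14:49055803-49055862 (A_67_P08115248) lymphoma mouse 2 read -3.23, against -0.97 in the next array. At the probe chr14:48987841-48987900 (A_67_P08115066), the first of the pair that stood apart from its neighbours, lymphoma mouse 5 read 3.82, against -0.39 in the next array. Groups of 14 arrays were not examined in this way.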

How the results depend on the processing

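The number of bins higher in lymphoma was 14 of 20 and lay between 11 and 14 under other centring, background correction, batch, left-out arrays, turned signs, dim probes and the exact permutation test. It was 16 with bins of at least 1 probe, 22 in bins of 50 kb and 7 in bins of 200 kb, which hold other numbers of bins. Lower probes numbered 5 with the sign turned for no-lymphoma mice 3, 4 and 9. Bins below wildtype in lymphoma numbered 3, with 1 under centring on the mode and 0 under normexp. Bins gained more often in lymphoma numbered 5, with 0 under a penalty of 5, mode centring, calls at 0.15 and without scan batch 2, and 8 without no-lymphoma mouse 11. Under normexp, computed on median spot signals, which compresses ratios, 5 no-lymphoma arrays had a loss in place of 11, and the lowest segments of lymphoma mice 2, 5, 7 and 8 were -1.27, -0.28, -0.05 and -0.24. At the lowest probe, A_67_P08115186, the difference turned to 0.20 without dim probes. That filter took out the low readings of lymphoma mice 2 and 5, so it does not test the loss. In the lists, V(D)J recombination had 0 lower genes with mode centring, 0 without scan batch 2, and 0 higher and 0 lower with the batch block. Control of Tcra recombination had 2 higher with mode centring and 0 with the block, and receptor partners had 1 higher with mode centring. With normexp 3 of the 5 highest probe differences lost their call, at 0.61, 0.76 and 0.86, and the largest drop moved in 4 of 8 lymphoma and 10 of 11 no-lymphoma arrays. A single step fitted inside the window moved the break in 9 of 11 no-lymphoma arrays, and to 48.2 Mb in lymphoma mouse 1 and to 48.6 Mb in lymphoma mouse 8. Alternatives without no-lymphoma mouse 11, and tests against wildtype with low-Atm arrays left out or batch 2 turned, were chosen after seeing the data. The cause of these changes was not tested. No paired analysis was possible because each array is labelled as a separate mouse and the labels name no pairs of mice.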
